A study of Danio rerio with 3 samples.

Results

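Serpini1 encodes neuroserpin, a secreted serine protease inhibitor of neurons, and the comparison described here set zebrafish larvae that express extra serpini1 from a neuronal promoter against wild-type larvae. The transcripts compared were the 19242 genes with at least 1 FPKM (fragments per kilobase of transcript, scaled to the mapped fragments of the library, the deposited unit) in either library, of 24555 genes with a value in both. The transgenic larvae carried the genotype Tg (huc:teton:gal4; tre:serpini1:mkate2), read here as a Tet-On factor driven in neurons by the huC (elavl3) promoter, which in doxycycline switches on a responder with serpini1 and the red fluorescent protein mKate2. The part that gal4 has in the construct is not described in the sources used here. Larvae called knockout here, after their title serpini1-/-, are given beside them. Their genotype is written Tg (serpini1-/-), and whether they carried any transgene is not stated in the sources used here. The control larvae were wild type. All 3 groups were on the AB background, were sampled whole at 7 days post fertilization (dpf) and had been bathed in 40 µg/mL doxycycline between 3 and 7 dpf. Each group gave 1 library from 30 pooled larvae, so no difference below has a replicate check, no p-value is given and genes are described by the size of the difference. No library of larvae with the driver or with mKate2 but without extra serpini1 was among the samples, so differences of the transgenic line from wild type and differences due to serpini1 cannot be told apart. The number of transgenic lines or founders, the light cycle, the time of day at sampling and the feeding of the larvae were not given in the sources used here.

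Neuroserpin blocks tissue-type plasminogen activator, the protease that cuts plasminogen to plasmin. Plasmin in turn dissolves fibrin, cuts matrix proteins and activates other proteases, and in the brain the activator also acts at synapses. Like other serpins, neuroserpin springs into a new fold when a protease cuts its reactive loop, a design that makes some variants of it prone to form polymers in the endoplasmic reticulum (ER) of neurons. Because RNA came from whole larvae, transcripts of skin, muscle, gut, liver, eye and blood were measured together with those of the nervous system.

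Serpini1 (gene identifier 557627) had 288 FPKM in the transgenic library, 8.05 FPKM in the knockout and 20.04 FPKM in control. The transgenic value was 14.4-fold higher (counting interval 12.8 to 16.2), where the interval is a 95% Clopper-Pearson interval on reads estimated from the depth and covers counting error only. Serpini1 ranked 11th among all genes compared by its log2 ratio, which was 3.78 on the scale of log2(FPKM + 1) used for every log2 ratio below. These values count all serpini1 reads together, from the responder and from the gene's own locus. Elavl3, an RNA-binding protein gene whose promoter drives the transgene, had 37.8 FPKM in the transgenic library, 44.5 FPKM in the knockout and 50.2 FPKM in control. Defining genes of the main tissues were present in all 3 libraries. Krt4 of epidermis had 1882 FPKM in transgenic larvae, against 2589.7 FPKM in knockout and 2019 FPKM in control larvae. Fabp10a of liver had 2743 FPKM in the transgenic pool, 2393 FPKM in the knockout pool and 1989 FPKM in the control pool, and ins (insulin) of the islet had 39.3 FPKM in the transgenic, 48.3 FPKM in the knockout and 40.2 FPKM in the control library. Further defining genes stand with their tissues, and the pancreatic gene prss1 was not matched to a gene of the files.

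By the rule of at least a 2-fold difference on that scale, 685 genes (3.56% of those compared) were higher and 243 genes (1.26%) were lower in the transgenic library. The median log2 ratio was 0.03, the lower and upper quartiles were -0.24 and 0.32, and 84 genes were at least 4-fold higher while 15 were at least 4-fold lower. Of the 685, 59 were listed at 0 in control and 259 had less than 1 FPKM there, and of the 243, 20 were listed at 0 in the transgenic library. A gene that passed the floor of 1 FPKM only through the transgenic library had to have a positive ratio, and there were 1117 of these, so the number of such genes stands beside the counts of higher genes below where it is not 0. In the same way, 758 genes passed the floor only through control and had to have a negative ratio. Their number is given below for the clock, exocrine pancreas, neuron and lens lists where it is not 0. Estimated depth was 8050000 fragments for the transgenic, 7830000 for the knockout and 7810000 for the control library. With the median ratio of genes of like length subtracted, an adjustment added after the values were seen, 535 genes were at least 2-fold higher and 334 lower. At the estimated depth the counting interval of the FPKM ratio excluded 1 for 668 of the higher and 234 of the lower genes.

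**Figure D1:**
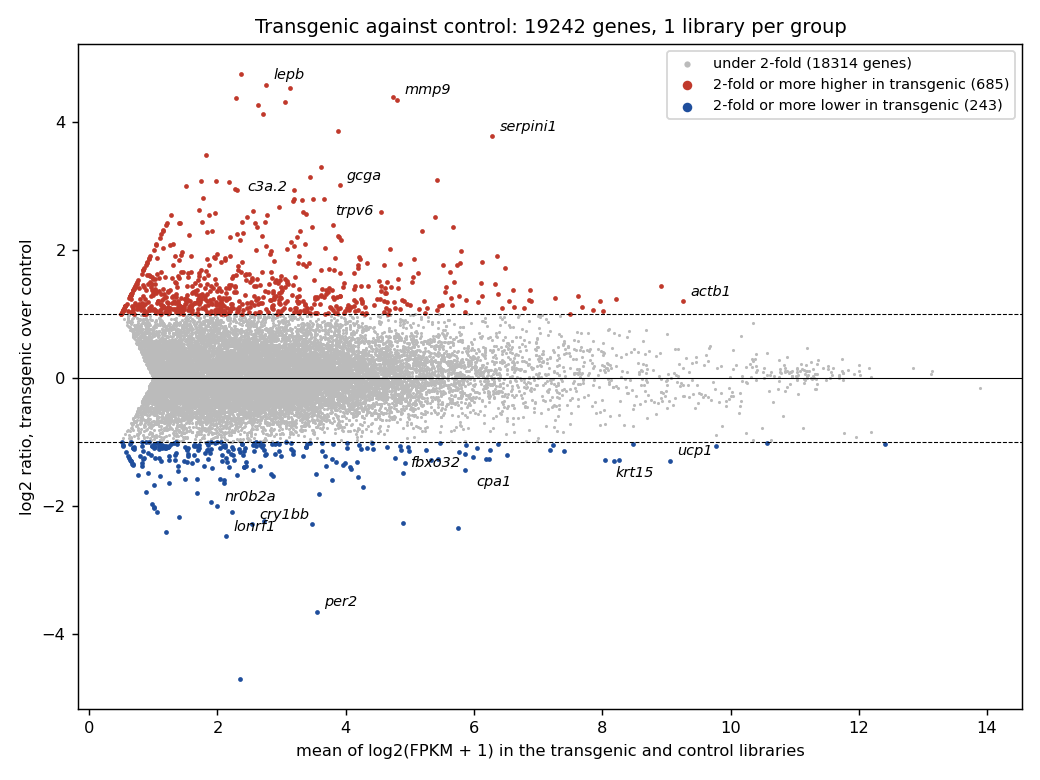
Log2 ratio of each of 19242 genes, transgenic over control (vertical axis), against the mean of log2(FPKM + 1) in both libraries (horizontal axis). Red points are the 685 genes at least 2-fold higher and blue points the 243 genes at least 2-fold lower in the transgenic library, dashed lines mark 2-fold, and per2 and serpini1 lie far from the other genes of like level.

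The ratio also moved with the length of the gene, across all kinds of genes. Among genes with 5 or more FPKM in each library of a pair, the median log2 ratio of transgenic over control was 0.18 for genes under 1 kb and -0.13 for genes over 5 kb, with the classes between in order. Transgenic over knockout gave 0.19 and -0.11 for the same classes, whereas knockout over control gave -0.0029 and -0.04. Of all compared genes, 179 of 1610 under 1 kb and 24 of 2533 over 5 kb were at least 2-fold higher. The libraries therefore differed in a way that followed length wherever the transgenic library was one of the pair, and its part in the results was not tested. Beside each list median below stands, where it matters, the median after the ratio of genes of like length was subtracted from each gene, called the length-adjusted median.

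**Figure D2:**
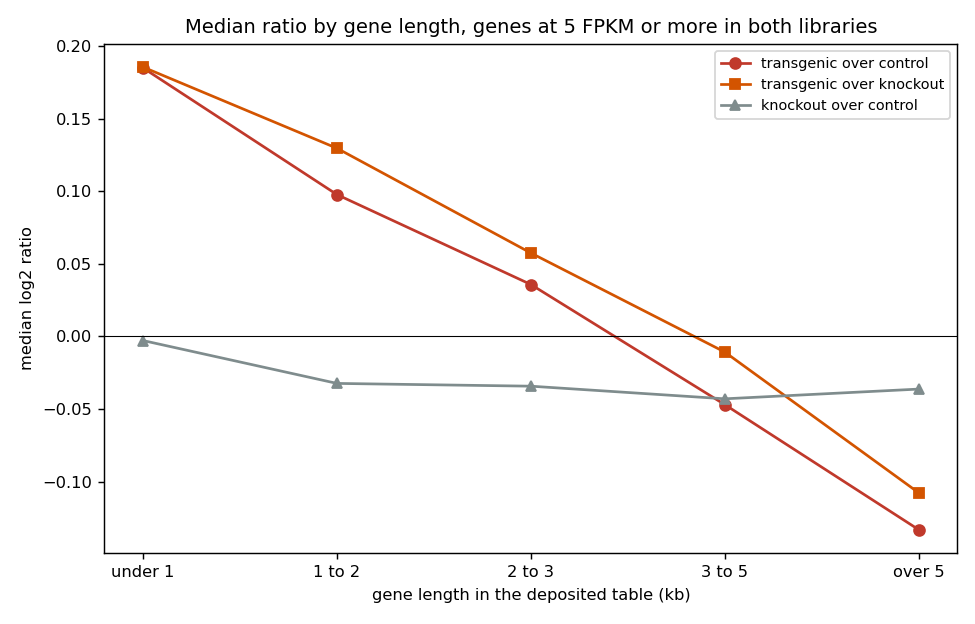
Median log2 ratio (vertical axis) by class of gene length in kb (horizontal axis) for genes with 5 or more FPKM in each library of a pair. The lines of the transgenic library over control (red circles) and over knockout (orange squares) run downward with length, ending at -0.13 and -0.11 for genes over 5 kb, while the line of knockout over control (grey triangles) stays between -0.0029 and -0.04.

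Several other genes of the serpin family were also higher. Of 23 serpin genes compared, 6 (26.1%) were at least 2-fold higher, serpini1 itself among them, and 0 lower, with 16 above 0 and 7 below it. The median was 0.43 (0.32 length-adjusted), and 1 gene was compared only through the transgenic library. Serpinf2b, a copy of the gene for alpha-2-antiplasmin, which inhibits plasmin itself, had 36.6 FPKM in transgenic larvae, against 18.5 FPKM in knockout and 15.6 FPKM in control larvae. Serpinh1b, whose product is a collagen chaperone and no inhibitor, had 31.0 FPKM in the transgenic pool, 6.62 FPKM in the knockout pool and 5.97 FPKM in the control pool. Agt, which encodes angiotensinogen, also a serpin without inhibitory function, had 44.5 FPKM in the transgenic, 17.4 FPKM in the knockout and 18.8 FPKM in the control library. LOC564060, a serpin gene without a full symbol, had 34.6 FPKM in transgenic larvae, against 10 FPKM in knockout and 8.60 FPKM in control larvae. In all of these the transgenic library was the highest and the knockout lay near control. Inhibitor genes of blood plasma differed less. Serpinc1 (antithrombin) had 31.5 FPKM in the transgenic pool, 24.5 FPKM in the knockout pool and 23.0 FPKM in the control pool. Serping1 (C1 inhibitor) had 4.84 FPKM in the transgenic, 5.06 FPKM in the knockout and 4.86 FPKM in the control library, equal within counting error.

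Proteases and receptors of the plasminogen system were higher in part. Of 19 genes, 2 were compared only through the transgenic library. None was at least 2-fold lower, and 3 (15.8%, against 3.56% of all genes compared) were at least 2-fold higher. They were plaua and both subunits of the annexin A2 complex (anxa2a and s100a10b), which binds plasminogen and its activator at the cell surface. S100a10b, the small subunit, had 301.11 FPKM in transgenic larvae, against 115 FPKM in knockout and 139 FPKM in control larvae. Its paralogue s100a10a had 123 FPKM in the transgenic pool, 173 FPKM in the knockout pool and 223 FPKM in the control pool, so the copies differed in opposite directions. Plaua, a urokinase-type activator gene, had 2.85 FPKM in the transgenic library and 0.78 FPKM in control, with no knockout value used. Plat, the tissue-type activator and main target of neuroserpin, had 3.59 FPKM in the transgenic, 1.52 FPKM in the knockout and 1.66 FPKM in the control library, a log2 ratio of 0.79 that did not reach the 2-fold rule. Plg, plasminogen itself, had 49.7 FPKM in transgenic larvae, against 39.3 FPKM in knockout and 41.0 FPKM in control larvae.

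Genes of the circadian clock held several of the largest differences downward. Of 56 clock and light-induced genes compared, 10 (17.9%) were at least 2-fold lower in the transgenic library and 0 were higher, the median was -0.37 and the length-adjusted median -0.39. Of the 56, 2 were compared only through control. In zebrafish the clock runs in most tissues and is set by light directly, through genes such as per2 and cry1aa that light switches on. Clock genes fall into those that drive the cycle, the Clock and Bmal (arntl) factors, and those that repress it, the Period and Cryptochrome factors.

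Per2, a light-induced repressor, had 2.31 FPKM in the transgenic library, 34.9 FPKM in the knockout and 40.7 FPKM in control, which made it the gene with the second lowest log2 ratio of all compared. It was 17.6-fold lower (counting interval 14.4 to 21.9) in the transgenic library, while the knockout and control libraries lay close together. Lonrf1, which encodes a protein with LON and RING domains, had 0.86 FPKM in the transgenic pool, 13.6 FPKM in the knockout pool and 9.36 FPKM in the control pool and was 10.9-fold lower. Cry5, the light-induced (6-4) photolyase that repairs ultraviolet damage, had 2.06 FPKM in the transgenic, 14.1 FPKM in the knockout and 13.3 FPKM in the control library and was 6.48-fold lower. For all 3 the transgenic value lay far below both others. Cry1bb, a cryptochrome repressor, had 1.62 FPKM in transgenic larvae, against 11.2 FPKM in knockout and 11.79 FPKM in control larvae. Its paralogue cry1ba had 16.1 FPKM in the transgenic pool, 37.4 FPKM in the knockout pool and 35.3 FPKM in the control pool. Xpc, the damage sensor of nucleotide excision repair, had 3.41 FPKM in the transgenic, 6.99 FPKM in the knockout and 9.15 FPKM in the control library. In each of these genes the transgenic library was the lowest.

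The activating limb was lower too. Arntl1b (Bmal1b) had 2.46 FPKM in transgenic larvae, against 6 FPKM in knockout and 7.59 FPKM in control larvae. Npas2, a Clock paralogue, had 0.92 FPKM in the transgenic pool, 3.60 FPKM in the knockout pool and 3.83 FPKM in the control pool. Rorcb, a nuclear receptor that activates Bmal genes, had 1.77 FPKM in the transgenic, 4.41 FPKM in the knockout and 5.36 FPKM in the control library. In these genes too the knockout stood nearer to control. Clocka had 1.15 FPKM in transgenic larvae, against 2.55 FPKM in knockout and 2.64 FPKM in control larvae, short of the 2-fold rule with a log2 ratio of -0.76. Arntl1a and cry1aa, the light-induced cryptochrome, were also short of it with log2 ratios of -0.78 and -0.76. Other clock genes stood above the control level. Nr1d1, the Rev-erb alpha repressor of Bmal genes, had 148 FPKM in the transgenic pool, 102 FPKM in the knockout pool and 122 FPKM in the control pool. Ciarta, whose mammalian counterpart binds Bmal and represses it, had 62.3 FPKM in the transgenic, 40.7 FPKM in the knockout and 40.4 FPKM in the control library, and per1a had 22.3 FPKM in transgenic larvae, against 15.8 FPKM in knockout and 18.01 FPKM in control larvae. Members of the list therefore lay on both sides of 0, with 14 of 56 above it. The libraries were not sampled over a day, and neither a shift of phase nor a lower amplitude can be read from 1 time.

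Digestive enzymes of the exocrine pancreas were the list with the lowest median. Of 37 genes, 15 (40.5%) were at least 2-fold lower and 0 higher, with a median of -0.94 and a length-adjusted median of -1.08. Of the 37, 1 was compared only through the transgenic library and 1 only through control. Their summed level was 20970 FPKM in the transgenic library, 42880 in the knockout and 40030 in control. Amylase (amy2a), which cuts starch, had 196 FPKM in the transgenic pool, 553 FPKM in the knockout pool and 477 FPKM in the control pool. The carboxypeptidase gene cpa1 had 34.4 FPKM in the transgenic, 96.7 FPKM in the knockout and 94.5 FPKM in the control library. Cel.1, the bile-salt-activated lipase, had 186 FPKM in transgenic larvae, against 358 FPKM in knockout and 456 FPKM in control larvae. Starch, protein and fat digestion were thus all represented. Ela2l, an elastase, had 1068 FPKM in the transgenic pool, 2603 FPKM in the knockout pool and 2152 FPKM in the control pool. The provisionally named zgc:92745 had the lowest ratio of the list with 23.0 FPKM in the transgenic, 59.9 FPKM in the knockout and 120.4 FPKM in the control library. Both the knockout and the control library stood above the transgenic one for each enzyme named. Trypsin and chymotrypsin genes were short of the rule, where try had 3481 FPKM in transgenic larvae, against 6979.5 FPKM in knockout and 6247 FPKM in control larvae and a log2 ratio of -0.84. Ctrb1 had 2891 FPKM in the transgenic pool, 5784 FPKM in the knockout pool and 5484 FPKM in the control pool and a log2 ratio of -0.92.

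Genes of the acinar cell that do not encode secreted enzymes differed among themselves. LOC100004902, described in the files as similar to an ER-resident protein, was at least 2-fold lower with 46.1 FPKM in the transgenic, 131 FPKM in the knockout and 112 FPKM in the control library. Pdia2, a folding enzyme of the pancreas, had 50.3 FPKM in transgenic larvae, against 108 FPKM in knockout and 73.0 FPKM in control larvae, short of the rule. Ptf1a, the transcription factor that specifies exocrine pancreas, had 1.70 FPKM in the transgenic pool, 1.90 FPKM in the knockout pool and 1.63 FPKM in the control pool. Bhlha15 (Mist1), which matures acinar cells, had 1.04 FPKM in the transgenic, 1.21 FPKM in the knockout and 0.94 FPKM in the control library. Nr5a2, which activates enzyme genes, had 3.67 FPKM in transgenic larvae, against 3.12 FPKM in knockout and 5.17 FPKM in control larvae. The values of these factors are low, so that 1 FPKM decides much of the ratio. In bulk RNA of whole larvae, fewer acinar cells and less enzyme RNA per cell cannot be told apart. Several of the enzyme genes are close copies of each other, among which reads may be split.

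**Figure D3:**
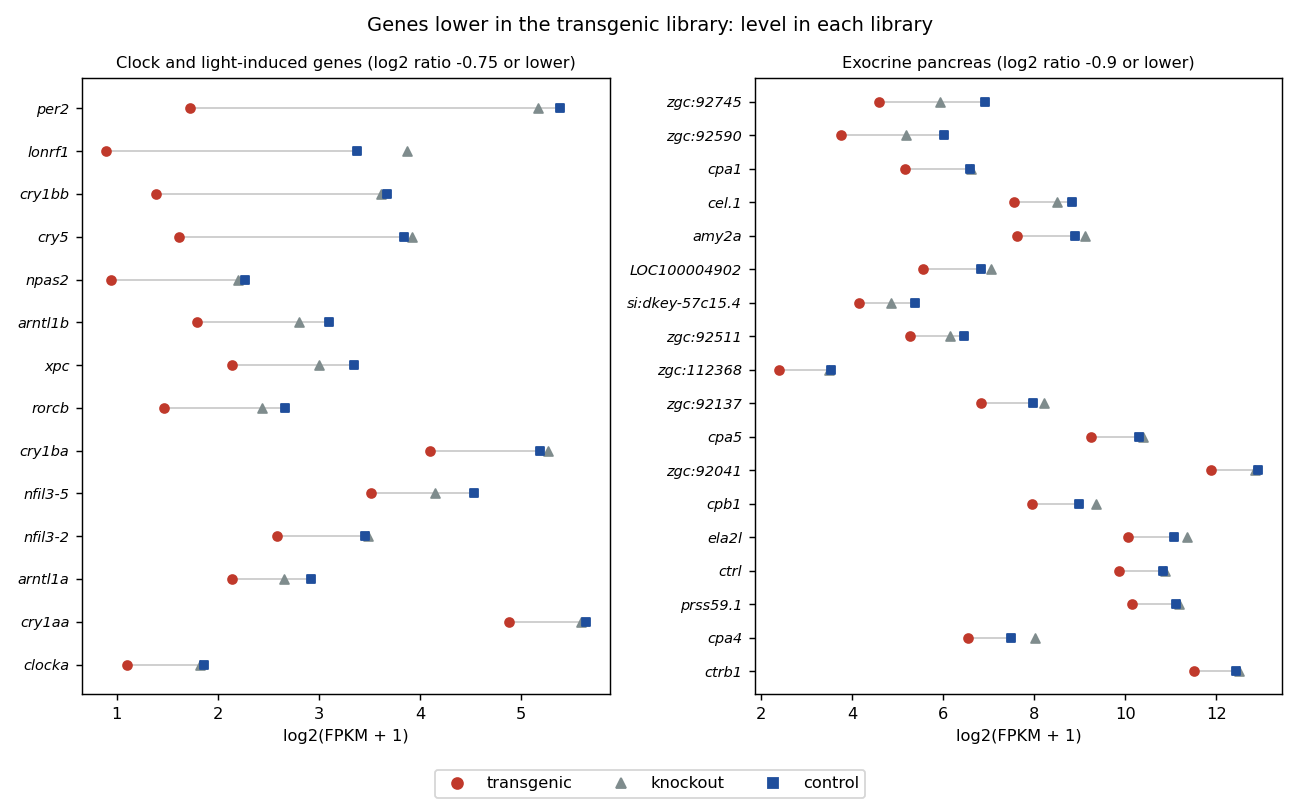
Level in each library, as log2(FPKM + 1) on the horizontal axis, of clock and light-induced genes with a log2 ratio of -0.75 or lower (left) and of exocrine pancreas genes at -0.9 or lower with a value in all 3 libraries (right), each a row. Red circles are the transgenic, grey triangles the knockout and blue squares the control library, and in every row shown the transgenic value is the lowest.

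Hormone genes of the islet and gut went both ways. Gcga, one of the glucagon genes, had 41.5 FPKM in the transgenic library, 8.08 FPKM in the knockout and 4.27 FPKM in control, and was 9.73-fold higher (counting interval 7.41 to 13.2). Gcgb, the other glucagon gene, had 16.8 FPKM in the transgenic pool, 5.76 FPKM in the knockout pool and 4.12 FPKM in the control pool. Sst2, a somatostatin gene of the islet, had 30.1 FPKM in the transgenic, 12.03 FPKM in the knockout and 10.5 FPKM in the control library. Insulin (ins) was at 39.3 and 40.2 FPKM in the transgenic and control libraries, and pdx1, the beta cell factor, at 3.27 and 3.51 FPKM. Glucagon transcripts were thus higher while insulin was nearly equal. On the lower side, gip, the incretin of the upper gut, had 2.58 FPKM in transgenic larvae, against 8.39 FPKM in knockout and 8.71 FPKM in control larvae. Pcsk1, the convertase that cuts prohormones, had 7.05 FPKM in the transgenic pool, 16.4 FPKM in the knockout pool and 19.97 FPKM in the control pool. Pcsk2, its relative, had 6.46 FPKM in the transgenic, 11.9 FPKM in the knockout and 12.3 FPKM in the control library and was short of the rule. Of 36 genes in the list, 3 (8.33%) were higher and 2 (5.56%) lower, against 3.56% and 1.26% of all genes compared. Of the 36, 1 was compared only through the transgenic library.

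Other tissue-specific genes were lower by the same rule. They included ubiquitin ligases of protein breakdown in muscle. Fbxo32 (atrogin-1) had 16.8 FPKM in transgenic larvae, against 45.3 FPKM in knockout and 48.6 FPKM in control larvae. Trim63a (MuRF1) had 40.5 FPKM in the transgenic pool, 89.96 FPKM in the knockout pool and 96.5 FPKM in the control pool. In mammals, fasting and glucocorticoids switch both genes on in muscle. Klhl38b, a kelch protein expressed in muscle, had 10.4 FPKM in the transgenic, 26.3 FPKM in the knockout and 27.5 FPKM in the control library. In all 3 the knockout was nearer to control than to the transgenic value. Sarcomere genes did not share the difference, with none of 86 past the 2-fold rule in either direction and a median of 0.07 (-0.03 length-adjusted). Of 49 genes of muscle formation, atrophy and repair, fbxo32 and trim63a were the 2 lower (4.08%, against 1.26% of all genes compared). In that list 2 (4.08%, against 3.56%) were higher, and 1 gene was compared only through the transgenic library. The higher were hspb1 and ankrd1a, with 43.4 and 8.58 FPKM in the transgenic library against 12.1 and 2.12 FPKM in control. Ucp1, an uncoupling protein of mitochondria that is abundant in fish liver, had 338 FPKM in transgenic larvae, against 544 FPKM in knockout and 829 FPKM in control larvae. Nr0b2a (Shp), the repressor of bile acid synthesis that bile acids induce, had 0.99 FPKM in the transgenic pool, 5.11 FPKM in the knockout pool and 7 FPKM in the control pool and was 7.07-fold lower. Tg, the thyroglobulin gene of the thyroid follicle, had 1.81 FPKM in the transgenic, 9.08 FPKM in the knockout and 6.01 FPKM in the control library. The gene with the lowest log2 ratio, wu:fc33b09, was listed at 0 in the transgenic library and had 8.28 FPKM in the knockout and 24.97 FPKM in control. Its symbol is provisional and no role is given for it here.

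On the higher side, genes of tissue repair held some of the largest differences. Of 33 genes of wounds and fin regeneration, 10 were at least 2-fold higher and 0 lower, with 4 compared only through the transgenic library and a median of 0.42. The interstitial collagenase mmp13a and the gelatinase mmp9 had 121 and 124 FPKM in the transgenic library, 3.36 and 3.21 FPKM in the knockout, and 4.78 and 5.16 FPKM in control. Adamts1, a versican-cleaving protease, had 27.7 FPKM in transgenic larvae, against 9.73 FPKM in knockout and 11.66 FPKM in control larvae. These and the inhibitor timp2b were the members of that family past the rule, 4 of 29 (13.8%), with 4 compared only through the transgenic library. Other matrix proteases differed by less. Mmp14b, the membrane-bound protease that activates others, had 12.8 FPKM in the transgenic pool, 8.64 FPKM in the knockout pool and 8.88 FPKM in the control pool, and mmp24 had 3.74 FPKM in the transgenic, 7 FPKM in the knockout and 6.44 FPKM in the control library. Cd44a, the receptor of the matrix sugar hyaluronan, had 12.9 FPKM in transgenic larvae, against 1.35 FPKM in knockout and 1.58 FPKM in control larvae.

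Transcription factors of the early response to injury were higher in part. Fosl1a (Fra-1), a member of the AP-1 family, had 24.9 FPKM in the transgenic pool, 3.40 FPKM in the knockout pool and 5.34 FPKM in the control pool. Junba, its partner in AP-1, had 89.1 FPKM in the transgenic, 23.5 FPKM in the knockout and 37.7 FPKM in the control library. Atf3, a stress-induced factor, had 22.6 FPKM in transgenic larvae, against 5.56 FPKM in knockout and 10.06 FPKM in control larvae. The transgenic library was the highest for all 3 and the knockout the lowest. Cebpb, which drives acute phase genes, had 227 FPKM in the transgenic pool, 89.4 FPKM in the knockout pool and 115 FPKM in the control pool and was short of the rule. Of 46 genes, 4 (8.7%, against 3.56% of all genes compared) were at least 2-fold higher and 0 lower. In this list 2 were compared only through the transgenic library, and the median was 0.14 (0.03 length-adjusted). Egr1 and fosab, which neuronal activity and serum switch on within minutes, were near the control level. Egr1 had 76.1 FPKM in the transgenic, 65.4 FPKM in the knockout and 71.0 FPKM in the control library. Fosab had 151 FPKM in transgenic larvae, against 129 FPKM in knockout and 135 FPKM in control larvae.

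Epithelial genes were higher and lower by the same rule. Elf3, an ETS factor of epithelia that inflammation induces, had 30.8 FPKM in the transgenic pool, 5.45 FPKM in the knockout pool and 5.09 FPKM in the control pool. Itln3, an intelectin, a lectin that binds microbial sugars, had 15.5 FPKM in the transgenic, 0.97 FPKM in the knockout and 1.84 FPKM in the control library. Muc5.1, a gel-forming mucin gene, had 13.3 FPKM in transgenic larvae, against 5.55 FPKM in knockout and 5.24 FPKM in control larvae. Of 27 genes of mucus and barrier, 6 (22.2%) were at least 2-fold higher and 0 lower, with 1 compared only through the transgenic library. The adhesion genes epcam and cdh1 (E-cadherin) had 177 and 50.4 FPKM in the transgenic library, against 74.98 and 23.3 FPKM in control. Keratins were divided. Krt18, of simple epithelia, had 255 FPKM in the transgenic pool, 97.7 FPKM in the knockout pool and 127 FPKM in the control pool. Krt15 had 168 FPKM in the transgenic, 431 FPKM in the knockout and 411 FPKM in the control library, and krt93 had 1.33 FPKM in transgenic larvae, against 5.15 FPKM in knockout and 5.16 FPKM in control larvae. Krt4, given above, differed by much less.

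Single genes of the actin cytoskeleton lay on different sides of control. Actb1, a cytoplasmic beta-actin gene, had 927 FPKM in the transgenic pool, 419 FPKM in the knockout pool and 404 FPKM in the control pool. Its paralogue actb2 had 3399 FPKM in the transgenic, 3412 FPKM in the knockout and 3485 FPKM in the control library, which are close together. Twf2, which encodes the actin-binding protein twinfilin, was lower, with 8.72 FPKM in the transgenic, 17.3 FPKM in the knockout and 23.9 FPKM in the control library. The actin-binding genes s100a11, capgb and arpc5a had 86.4, 45.6 and 10.5 FPKM in the transgenic library, against 26.6, 19.9 and 3.19 FPKM in control. Capgb caps filaments and arpc5a is a subunit of the branching complex Arp2/3. Of 29 annexin and S100 genes, 6 (20.7%) were at least 2-fold higher, with 1 compared only through the transgenic library and a median of 0.46 (0.30 length-adjusted). Anxa1a, whose protein restrains inflammation, had 308 FPKM in transgenic larvae, against 199.7 FPKM in knockout and 126 FPKM in control larvae.

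Signals that call leukocytes were among the lists with the highest medians. Of 36 chemokine and receptor genes compared, 16 (44.4%) were at least 2-fold higher and 0 lower, with a median of 0.77 (0.62 length-adjusted) and 9 compared only through the transgenic library. Without the floor of 1 FPKM the median was 0.39. The neutrophil attractants cxcl8a and il8l1 had 12.9 and 14.6 FPKM in the transgenic library, 0.98 and 1.25 FPKM in the knockout, and 1.71 and 1.88 FPKM in control. Cxcl18b, a chemokine without a known mammalian counterpart, had 11.13 FPKM in the transgenic pool, 2.32 FPKM in the knockout pool and 2.04 FPKM in the control pool. Ccl19a.1, related to the attractant of dendritic cells and lymphocytes, had 11.4 FPKM in the transgenic, 4.58 FPKM in the knockout and 3.21 FPKM in the control library. These ligands were all highest in the transgenic library. Cxcr4a, a receptor copy, had 5.02 FPKM in transgenic larvae, against 1.70 FPKM in knockout and 1.79 FPKM in control larvae. The chemokine genes cxcl12a and cxcl14 did not share the difference, at 26.04 and 19.6 FPKM in the transgenic library, against 26.7 and 17.4 FPKM in control. Ccl27a, another chemokine gene, was past the rule with a log2 ratio of 1.18. Whether inflammatory and homeostatic chemokine genes differed as classes was not tested. Of 23 cytokine genes, 5 (21.7%) were at least 2-fold higher, with 7 compared only through the transgenic library. They included both leptins, of which lepa had 7.81 FPKM in the transgenic library and 0.5 FPKM in control, with no knockout value used. In fish leptins are made in liver and in regenerating tissue, not mainly in fat.

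Among receptors and signal transducers of cytokines few genes passed the rule. Lifrb, a receptor of the interleukin 6 family, had 5.68 FPKM in the transgenic pool, 1.31 FPKM in the knockout pool and 1.29 FPKM in the control pool. Its paralogue lifra had 3.42 FPKM in the transgenic, 3.91 FPKM in the knockout and 6.13 FPKM in the control library, in the other direction and short of the rule. Socs3b, the feedback inhibitor that STAT3 switches on, had 38.7 FPKM in transgenic larvae, against 10.8 FPKM in knockout and 13.97 FPKM in control larvae. Of 52 receptor, JAK-STAT and SOCS genes, 3 (5.77%, against 3.56% of all genes compared) were at least 2-fold higher, with 5 compared only through the transgenic library and a median of 0.21. In the inflammasome, the adaptor pycard (ASC) had 34.3 FPKM in the transgenic pool, 16.4 FPKM in the knockout pool and 14.1 FPKM in the control pool. Caspb, a caspase of the inflammatory kind, had 47.3 FPKM in the transgenic, 17.9 FPKM in the knockout and 15.6 FPKM in the control library. The flagellin receptor tlr5b had 6.81 FPKM in transgenic larvae, against 2.48 FPKM in knockout and 2.06 FPKM in control larvae. Receptor, adaptor and caspase were each at least 2-fold higher. The NF-kB subunit rela and the adaptor myd88 had 5.51 and 7.47 FPKM in the transgenic library, against 7.52 and 6.01 FPKM in control. Of 45 genes of Toll-like receptors, NF-kB and inflammasomes, 7 (15.6%) were at least 2-fold higher and 0 lower, with 8 compared only through the transgenic library.

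Enzymes that make and remove prostaglandins, the lipid mediators of inflammation, were higher at several steps. Ptgs2a (cyclooxygenase 2) had 41.3 FPKM in the transgenic pool, 11.58 FPKM in the knockout pool and 13.9 FPKM in the control pool. Ptges, the synthase of prostaglandin E2, had 17.6 FPKM in the transgenic, 3.87 FPKM in the knockout and 3.98 FPKM in the control library. Ptgr1, a reductase that inactivates prostaglandins and leukotrienes, had 17.6 FPKM in transgenic larvae, against 4.63 FPKM in knockout and 3.23 FPKM in control larvae. Ptgs2a was 2.97-fold higher, ptges 4.42-fold higher and ptgr1 5.44-fold higher. Tbxas1, the thromboxane synthase, lay the other way with 9.89 FPKM in the transgenic pool, 17.1 FPKM in the knockout pool and 20.3 FPKM in the control pool, short of the rule. Of 30 genes, 4 (13.3%, against 3.56% of all genes compared) were at least 2-fold higher. In this list 1 was compared only through the transgenic library and the median was 0.19.

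Plasma defence proteins, mostly made in liver, held many genes past the rule. Of 35 acute phase genes, 13 (37.1%) were at least 2-fold higher and 1 lower, and 5 were compared only through the transgenic library. The median was 0.71 (0.49 length-adjusted), and 0.46 without the floor of 1 FPKM. Hamp, which encodes the iron hormone hepcidin, had 30.7 FPKM in the transgenic library, was listed at 0 in the knockout and had 5.78 FPKM in control. Crp4, a C-reactive protein copy, had 56.1 FPKM in transgenic larvae, against 12.7 FPKM in knockout and 18.1 FPKM in control larvae. Steap4, a metalloreductase, had 16.1 FPKM in the transgenic pool, 2.94 FPKM in the knockout pool and 3.24 FPKM in the control pool. The member that was lower was ahsg2, a fetuin, with 4.22 FPKM in the transgenic, 8.99 FPKM in the knockout and 11.14 FPKM in the control library. Fetub, its abundant relative, had 714 FPKM in transgenic larvae, against 1420.3 FPKM in knockout and 1205 FPKM in control larvae and was short of the rule. In mammals the related AHSG is a plasma protein whose level is lowered in the acute phase.

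Complement genes past the rule ran from the central component to the membrane pore. Of 42 compared, 8 (19%) were at least 2-fold higher and 0 lower, with 6 compared only through the transgenic library and a median of 0.63. C3a.2, a copy of the central component C3, had 23.2 FPKM in the transgenic pool, 1.61 FPKM in the knockout pool and 2.46 FPKM in the control pool. The more abundant copy c3a.1 had 117 FPKM in the transgenic, 44.5 FPKM in the knockout and 59.6 FPKM in the control library, a log2 ratio of 0.96 that was short of the rule. Cfb, the protease of the alternative pathway, had 55.5 FPKM in transgenic larvae, against 18.4 FPKM in knockout and 23.6 FPKM in control larvae. Cfd (factor D), the protease that activates it, had 37.6 FPKM in the transgenic pool, 20.1 FPKM in the knockout pool and 2.91 FPKM in the control pool, the highest log2 ratio of the list, with the knockout also above control. The brake of the pathway, cfh, had 18.1 FPKM in the transgenic, 6.76 FPKM in the knockout and 6.88 FPKM in the control library, so activators and an inhibitor were higher. Of the pore, c6 had 18.9 FPKM in transgenic larvae, against 5.49 FPKM in knockout and 8.33 FPKM in control larvae. C9, which forms its wall, had 118 FPKM in the transgenic pool, 53.5 FPKM in the knockout pool and 62.2 FPKM in the control pool and a log2 ratio of 0.92. Masp1 and masp2, proteases of the lectin pathway, were at 2.76 and 4.84 FPKM in the transgenic library, against 3.75 and 4.50 FPKM in control.

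**Figure D4:**
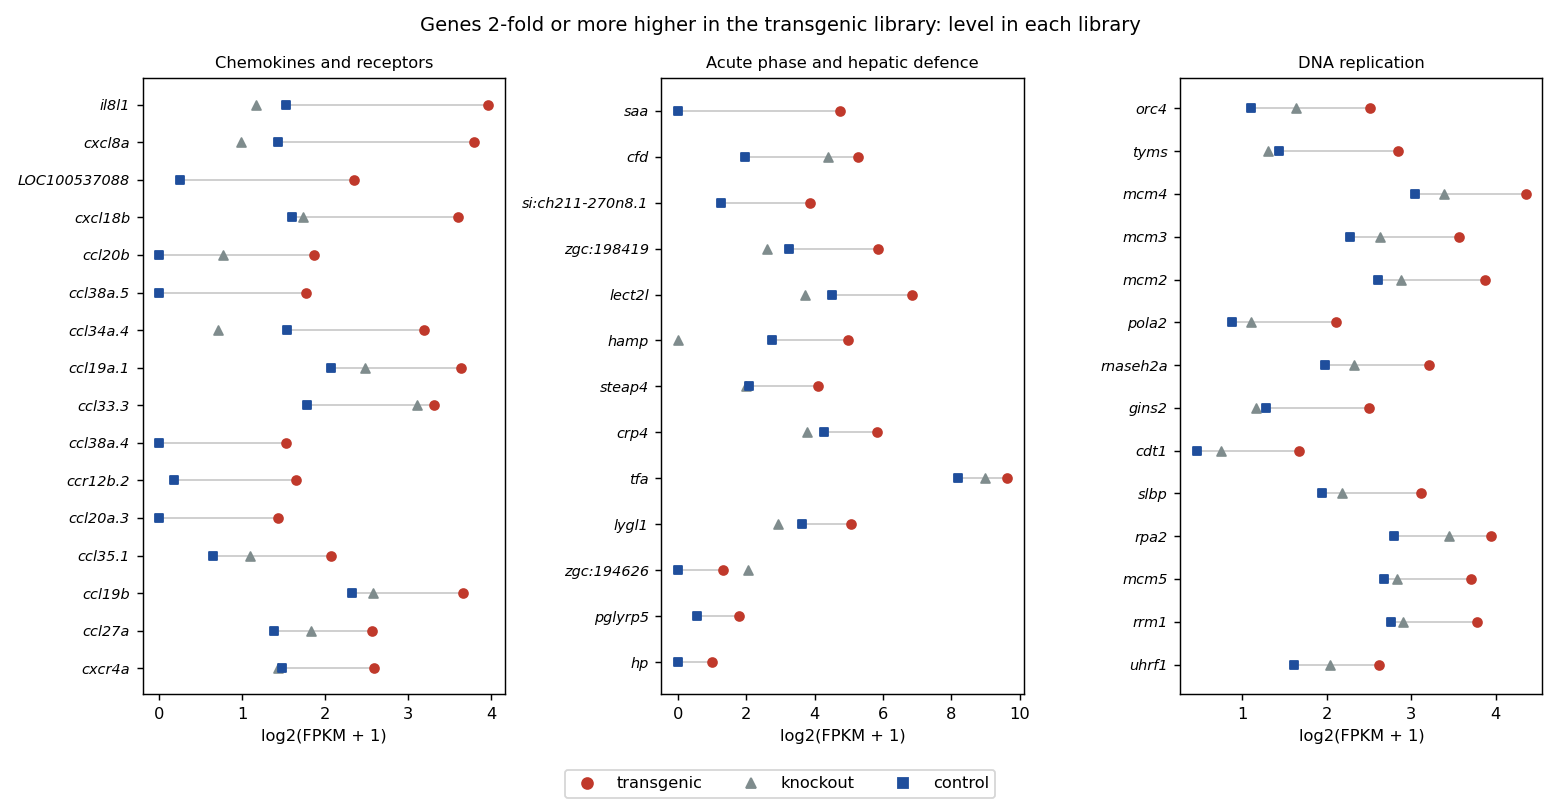
Level in each library, as log2(FPKM + 1) on the horizontal axis, of genes at least 2-fold higher in the transgenic library from the lists of chemokines (left), acute phase genes (middle) and DNA replication (right), each a row. Red circles are the transgenic, grey triangles the knockout and blue squares the control library, triangles are missing where no knockout value was used, and the transgenic value is the highest in every row but that of zgc:194626.

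Interferon-stimulated genes and antigen presentation shared the direction, with low levels in control for the higher genes named. Of 43 interferon-stimulated genes, 14 (32.6%) were at least 2-fold higher and 0 lower, with a median of 0.76, but 16 were compared only through the transgenic library. Without the floor of 1 FPKM the median was 0.59. Isg15, a ubiquitin-like modifier, had 11.14 FPKM in the transgenic pool, 3.07 FPKM in the knockout pool and 1.23 FPKM in the control pool. The provisionally named zgc:123068 had 22.6 FPKM in the transgenic, 3.96 FPKM in the knockout and 2.48 FPKM in the control library. Rsad2 (viperin), an antiviral enzyme, had 2.97 FPKM in the transgenic library and 0.08 FPKM in control, with no knockout value used. Stat1b, a copy of the factor that carries the interferon signal, had 4.66 FPKM in the transgenic library and 0.88 FPKM in control, with no knockout value used. The more abundant copy stat1a had 21.5 FPKM in the transgenic, 19.4 FPKM in the knockout and 16.6 FPKM in the control library. For that copy the libraries were close, while rsad2 and stat1b were under 1 FPKM in control. Of 31 genes of antigen presentation, 6 (19.4%) were at least 2-fold higher and 0 lower, with 5 compared only through the transgenic library. B2m, the light chain of class I molecules, had 9.56 FPKM in transgenic larvae, against 2.71 FPKM in knockout and 2.84 FPKM in control larvae. Of the catalytic subunits of the immunoproteasome, psmb9a and psmb10 were listed at 0 in control and had 1.46 and 1.06 FPKM in the transgenic library. The third, psmb8a, was nearly equal, at 1.03 FPKM in the transgenic and 1.07 FPKM in the control library. The constitutive proteasome differed little, with 0 of 46 genes past the rule and a median of 0.14 (-0.03 length-adjusted).

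Markers of blood cells lay beside these lists. Of 41 macrophage and microglia genes, 39 had a ratio above 0 and 9 (22%) were at least 2-fold higher, with 2 compared only through the transgenic library and a median of 0.66. Mpeg1.1, a defining macrophage gene, had 7.78 FPKM in the transgenic pool, 1.96 FPKM in the knockout pool and 3.97 FPKM in the control pool. Its log2 ratio of 0.82 was short of the rule. Spi1a, a copy of the myeloid factor Pu.1, had 4.45 FPKM in the transgenic, 1.28 FPKM in the knockout and 1 FPKM in the control library. Its paralogue spi1b had 2.94 FPKM in the transgenic, 1.07 FPKM in the knockout and 2.09 FPKM in the control library. The log2 ratio of spi1b, 0.35, was short of the rule. Marco, a scavenger receptor, had 17.1 FPKM in transgenic larvae, against 3.50 FPKM in knockout and 6.57 FPKM in control larvae. Of 30 neutrophil genes, 28 were above 0 and 8 (26.7%) were at least 2-fold higher, with 2 compared only through the transgenic library. The protease genes cpa5, mmp9 and mmp13a of that list are also expressed outside neutrophils, and cpa5, a neighbour of cpa1, was its 1 lower member. Of its higher members, lect2l, s100a10b, nccrp1 and cyba also belong to other lists used here. The defining gene mpx (myeloperoxidase) had 9.27 FPKM in the transgenic pool, 2.67 FPKM in the knockout pool and 5.31 FPKM in the control pool. With a log2 ratio of 0.70 it was short of the rule. Summed levels of the macrophage list were 1907 FPKM in the transgenic library, 1168 in the knockout and 1182 in control. That sum includes apoc1l, also in the apolipoprotein list, at 380 FPKM in the transgenic library, 256 in the knockout and 164 in control. The neutrophil list summed to 2000 FPKM in the transgenic library, 1918 in the knockout and 1929 in control. It includes cpa5, at 606 FPKM in the transgenic library and 1262 FPKM in control. The part that numbers of leukocytes have in the immune lists was not tested.

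Red cell and vessel genes differed from each other. Of 36 genes of red cells and heme, 4 were at least 2-fold higher, with 1 compared only through the transgenic library. In that list 31 were above 0 and 5 below it, and the median was 0.44 (0.28 length-adjusted). The 4 higher genes were all globin genes. The globin-like MGC173646 had 129.9 FPKM in the transgenic, 53.5 FPKM in the knockout and 36.3 FPKM in the control library. Hbbe1.1, a defining embryonic globin, had 543 FPKM in transgenic larvae, against 143 FPKM in knockout and 415 FPKM in control larvae. For that gene the knockout, not control, was the lowest. Globin copies are near-identical and reads may be split among them. The factors that direct red cell formation lay on both sides of control. Gata1a had 1.56 FPKM in the transgenic library, against 0.56 FPKM in control. Tal1 and klf17 had 4.54 and 2.09 FPKM in the transgenic library, against 6.69 and 3.25 FPKM in control. None of 40 genes of endothelium and thrombocytes passed the 2-fold rule, and cdh5, the endothelial cadherin, had 4.43 FPKM in the transgenic pool, 3.34 FPKM in the knockout pool and 4.32 FPKM in the control pool.

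Genes of cell division had ratios above 0 nearly without exception. Of 54 genes of DNA replication compared, all had a ratio above 0 and 14 (25.9%) were at least 2-fold higher, with a median of 0.76 (0.71 length-adjusted). 10 of the list were compared only through the transgenic library. Orc4, a subunit of the complex that marks origins, had 4.70 FPKM in the transgenic, 2.11 FPKM in the knockout and 1.15 FPKM in the control library. The helicase subunits mcm2 and mcm3 had 13.7 and 10.8 FPKM in the transgenic library, 6.36 and 5.21 FPKM in the knockout, and 5.09 and 3.85 FPKM in control. Of 62 genes of mitosis, 60 were above 0 and 10 (16.1%) were at least 2-fold higher, with 18 compared only through the transgenic library. Ccnb1 (cyclin B1) had 4.30 FPKM in transgenic larvae, against 2.54 FPKM in knockout and 1.18 FPKM in control larvae. Cdk1, its partner kinase, had 5.60 FPKM in the transgenic pool, 3.70 FPKM in the knockout pool and 2.2 FPKM in the control pool. For these mitotic genes the knockout value lay between the other libraries. Genes that p53 switches on differed less, with a median of 0.25.

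Genes in the list of ribosome biogenesis lay mostly below 0. Of its 58 genes, 43 were below 0 and none passed the rule, with a median of -0.24 (-0.28 length-adjusted). In the authors' pathway annotation, the ribosome biogenesis entry held 106 compared genes with a median nearer to 0, at -0.015. Of those 106, 1 (0.943%, against 3.56% of all genes compared) was at least 2-fold higher and 0 lower. Ddx21, a helicase of ribosomal RNA processing, had 249 FPKM in the transgenic, 315 FPKM in the knockout and 372 FPKM in the control library. Nop58, a core protein of the particles that modify that RNA, had 26.6 FPKM in transgenic larvae, against 29.0 FPKM in knockout and 40.1 FPKM in control larvae. Of 82 genes of cytosolic ribosomal proteins, 66 were above 0 and none passed the rule, with a median of 0.08, which turned to -0.13 after the length adjustment. These genes are short, at a median of 593 bases.

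The secretory pathway was considered because neuroserpin is folded in the ER. Of 60 genes of ER import and folding, 5 (8.33%, against 3.56% of all genes compared) were at least 2-fold higher and 0 lower. In that list 1 was compared only through the transgenic library, and the median was 0.27 (0.15 length-adjusted). Calr3b, a calreticulin that binds sugar chains of new proteins, had 16.8 FPKM in the transgenic pool, 5.23 FPKM in the knockout pool and 6.37 FPKM in the control pool. Fkbp9, a prolyl isomerase of the ER, had 9.78 FPKM in the transgenic, 4.55 FPKM in the knockout and 3.62 FPKM in the control library. Pdia4, a protein disulfide isomerase, had 18.4 FPKM in transgenic larvae, against 6.41 FPKM in knockout and 5.71 FPKM in control larvae. Hsp90b1 (Grp94) had 63.5 FPKM in the transgenic pool, 27.7 FPKM in the knockout pool and 28.7 FPKM in the control pool. The remaining higher gene was serpinh1b, given above with the serpins. None of 35 genes of the unfolded protein response and ER degradation passed the rule, and the median was 0.12 (0.05 length-adjusted). Among them, edem1, which delivers misfolded glycoproteins for degradation, had 8.91 FPKM in transgenic larvae, against 5.48 FPKM in knockout and 5.84 FPKM in control larvae. Xbp1, the target of the sensor Ire1, had 156 FPKM in the transgenic pool, 120.2 FPKM in the knockout pool and 116 FPKM in the control pool. Ddit3 (Chop), the stress factor of the sensor Perk, had 25.8 FPKM in the transgenic, 36.5 FPKM in the knockout and 39.0 FPKM in the control library. The genes named from that list were therefore on both sides of control by small amounts, while the 5 higher folding genes were counted in the folding list. Pdia2, the folding enzyme of the pancreas given above, lay the other way. Of 62 genes of glycosylation and vesicle transport, 2 (3.23%, against 3.56% of all genes compared) were at least 2-fold higher. In this list 1 gene was compared only through the transgenic library. Past the rule were gfpt1 and pmm2, which supply sugars, with 11.76 and 4.85 FPKM in the transgenic library against 5.04 and 1.79 FPKM in control.

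Shares of genes at least 2-fold higher in the metabolic lists ran from 0 for oxidative phosphorylation to 12.3% for cholesterol and fatty acid synthesis. All of these lists but oxidative phosphorylation exceeded the 3.56% of all genes compared. In sterol synthesis, cyp51, which removes a methyl group from lanosterol, had 13.01 FPKM in transgenic larvae, against 2.72 FPKM in knockout and 2.01 FPKM in control larvae. Sqlea, the squalene epoxidase, had 2.03 FPKM in the transgenic pool, 0.89 FPKM in the knockout pool and 0.25 FPKM in the control pool. Srebf1, the factor that governs fatty acid synthesis, lay the other way with 20.3 FPKM in the transgenic, 25.1 FPKM in the knockout and 46.2 FPKM in the control library. Abcg1, a sterol exporter gene, was lower as well, with 6.12 FPKM in transgenic larvae, against 8.75 FPKM in knockout and 14.1 FPKM in control larvae. Hmgcrb, a copy of the rate-limiting enzyme of sterol synthesis, had 8.95 FPKM in the transgenic pool, 9.11 FPKM in the knockout pool and 10.35 FPKM in the control pool. Of 57 genes of cholesterol and fatty acid synthesis, 7 (12.3%) were higher and 2 (3.51%) lower, with 4 compared only through the transgenic library. Of all genes compared, 3.56% were higher and 1.26% lower. In the polyamine pathway, odc1 (ornithine decarboxylase), which opens it, had 96.8 FPKM in the transgenic, 12.1 FPKM in the knockout and 27.7 FPKM in the control library. Sat1a.2, which acetylates polyamines for export, had 108 FPKM in transgenic larvae, against 31.8 FPKM in knockout and 43.9 FPKM in control larvae. Both were at least 2-fold higher, and the knockout was the lowest for each. Txn (thioredoxin), of redox defence, had 101 FPKM in the transgenic pool, 23.5 FPKM in the knockout pool and 28.4 FPKM in the control pool. Prdx1 (peroxiredoxin 1), which thioredoxin recharges, had 45.0 FPKM in the transgenic, 10.8 FPKM in the knockout and 16.3 FPKM in the control library. Pdk1, a kinase that closes the entry of pyruvate to mitochondria, had 6.96 FPKM in transgenic larvae, against 5.87 FPKM in knockout and 23.0 FPKM in control larvae, so that control stood apart from the other libraries. Of 76 subunits of oxidative phosphorylation, 72 were above 0 and none passed the rule, with a median of 0.40 (0.20 length-adjusted).

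Genes of neurons, the cells in which the driver promoter is active, lay mostly below 0 by small amounts. In the list of voltage-gated channels, 60 of 67 were below 0 and none was past the 2-fold rule in either direction, with a median of -0.37 (-0.29 length-adjusted). Glutamate receptor and scaffold genes gave 68 of 83 below 0 and a median of -0.38 (-0.30 length-adjusted), and those of GABA and glycine 39 of 46 and -0.34 (-0.34 length-adjusted). Compared only through control were 4 of the channel, 6 of the glutamate and 6 of the GABA and glycine genes. Without the floor of 1 FPKM the medians were -0.36, -0.38 and -0.32. The genes of these lists are long, at medians of 4987, 3946 and 2636 bases, against 2353 bases for all genes compared. Cacna1aa, a calcium channel of nerve terminals, had 7.34 FPKM in the transgenic pool, 11.3 FPKM in the knockout pool and 12.1 FPKM in the control pool. Kcnc1a, a potassium channel of fast-firing neurons, had 8.59 FPKM in the transgenic, 13.96 FPKM in the knockout and 15.3 FPKM in the control library. The transgenic library was the lowest for both genes, with log2 ratios of -0.65 and -0.77, neither of which reached the rule.

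Genes of neuronal identity and structure differed less. The list of neuronal transcription factors had a median of -0.02, with 1 gene (1.47%, against 1.26% of all genes compared) lower by the rule. It was neurod2, a factor of forebrain neurons, which had 1.19 FPKM in transgenic larvae, against 3.59 FPKM in knockout and 3.51 FPKM in control larvae. Axon and cytoskeleton genes had a median of -0.14, and 2.94% were at least 2-fold higher, against 3.56% of all genes compared. Their 2 members past the rule were atf3, also an immediate early gene and given above, and tuba1b, a tubulin, which had 9.75 FPKM in the transgenic pool, 6.05 FPKM in the knockout pool and 3.17 FPKM in the control pool. Growth-linked tubulin tubb2b had 166 FPKM in the transgenic, 132 FPKM in the knockout and 102 FPKM in the control library, short of the rule. Myelin and glial lists had medians of -0.05 and 0.11, close to that of all genes. Mbpa, a myelin protein gene, had 42.5 FPKM in transgenic larvae, against 44.5 FPKM in knockout and 45.0 FPKM in control larvae. Gfap of glia had 67.3 FPKM in the transgenic pool, 55.8 FPKM in the knockout pool and 55.2 FPKM in the control pool. Of 89 genes of monoamine, acetylcholine and peptide neurons, 1 (1.12%) was higher and 3 (3.37%) were lower, against 3.56% and 1.26% of all genes compared. Of the 89, 4 were compared only through the transgenic library and 5 only through control. Pmch, a lower gene, was listed at 0 in the transgenic library and had 1.09 FPKM in control. Pmchl, which encodes a melanin-concentrating hormone, had 2.38 FPKM in the transgenic, 4.67 FPKM in the knockout and 7.80 FPKM in the control library. Crhb, the corticotropin-releasing hormone, was just short of the rule with 3.65 FPKM in transgenic larvae, against 6.78 FPKM in knockout and 8.23 FPKM in control larvae.

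In the eye, lens genes lay mostly below 0 and photoreceptor genes on both sides. Of 64 lens genes, 57 were below 0 and 4 (6.25%, against 1.26% of all genes compared) were at least 2-fold lower. The median was -0.31 and the length-adjusted median -0.49, further from 0, the lens genes having a median length of 786 bases. Of the 64, 4 were compared only through control, and without the floor of 1 FPKM the median was -0.30. Crygm2c, a gamma crystallin, had 9.72 FPKM in the transgenic pool, 4.87 FPKM in the knockout pool and 30.27 FPKM in the control pool, with the knockout lowest. Its neighbours crygm2b and crygmxl1 belong to the same cluster of near-identical genes, whose reads may be split. Six7, a factor of cone photoreceptors in fish, had 5.91 FPKM in the transgenic, 16.5 FPKM in the knockout and 18.6 FPKM in the control library. Tulp1b, of photoreceptor transport, had 1.94 FPKM in transgenic larvae, against 6.88 FPKM in knockout and 7.37 FPKM in control larvae. Opn1sw1, the ultraviolet cone opsin, did not share that difference and had 486 FPKM in the transgenic pool, 442 FPKM in the knockout pool and 325 FPKM in the control pool.

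Genes of ionocytes, the salt-transporting cells of fish skin, were on both sides. Trpv6, the calcium channel of ionocytes, had 32.4 FPKM in the transgenic, 3.68 FPKM in the knockout and 3.78 FPKM in the control library, and was 8.57-fold higher (counting interval 6.73 to 11.13). Atp1a1a.2, a sodium pump subunit, had 83.2 FPKM in transgenic larvae, against 32.03 FPKM in knockout and 23.8 FPKM in control larvae. Atp1a1a.4, a defining ionocyte copy, had 202 FPKM in the transgenic pool, 238 FPKM in the knockout pool and 192 FPKM in the control pool. The copies of the pump thus differed from each other. The potassium channel copies kcnj1a.4, kcnj1a.5 and kcnj1a.6 were all at least 2-fold higher, and kcnj1a.5 had 12.9 FPKM in the transgenic, 3.44 FPKM in the knockout and 2.92 FPKM in the control library. The ammonia channel rhcga lay the other way with 97.5 FPKM in transgenic larvae, against 173 FPKM in knockout and 215 FPKM in control larvae. Of 50 ionocyte genes, 5 (10%) were higher and 3 (6%) lower, against 3.56% and 1.26% of all genes compared. Of the 50, 1 was compared only through the transgenic library, and the median was 0.14.

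Genes of collagens and small proteoglycans lay mostly above 0 by small amounts. Of 60, 46 were above 0, with a median of 0.34, and 1 was compared only through the transgenic library. At least 2-fold higher were 2 (3.33%, against 3.56% of all genes compared). They were col9a3, with 61.3 FPKM in the transgenic library and 28.7 FPKM in control, and LOC100535130. The latter had 1.05 FPKM in the transgenic library, from an estimated 2 reads, and was listed at 0 in control. Col2a1a, the collagen of cartilage, had 249.6 FPKM in the transgenic pool, 249.7 FPKM in the knockout pool and 151 FPKM in the control pool. Matn1, a cartilage matrix protein, had 74.0 FPKM in the transgenic, 72.8 FPKM in the knockout and 42.3 FPKM in the control library. Col9a1a, a cartilage collagen chain, had 54.1 FPKM in transgenic larvae, against 51.9 FPKM in knockout and 29.0 FPKM in control larvae. In these 3 genes control stood apart, with the knockout and transgenic libraries nearly equal.

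Across all 71 lists, the medians ran from -0.94 for exocrine pancreas to 0.77 for chemokines. The chemokine median did not stay the highest after the length adjustment, where it was 0.62, against 0.72 for mitosis and 0.71 for DNA replication, nor without the floor, where it was 0.39, against 0.72 for DNA replication. In all, 207 of the 685 higher and 57 of the 243 lower genes belonged to at least 1 list. The lists overlap, for example mmp9 is a wound, protease and neutrophil gene, so their counts do not add up. Genes with a named symbol made up 59.12% of the higher and 60.08% of the lower genes, against 77.01% of all compared.

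**Figure D5:**
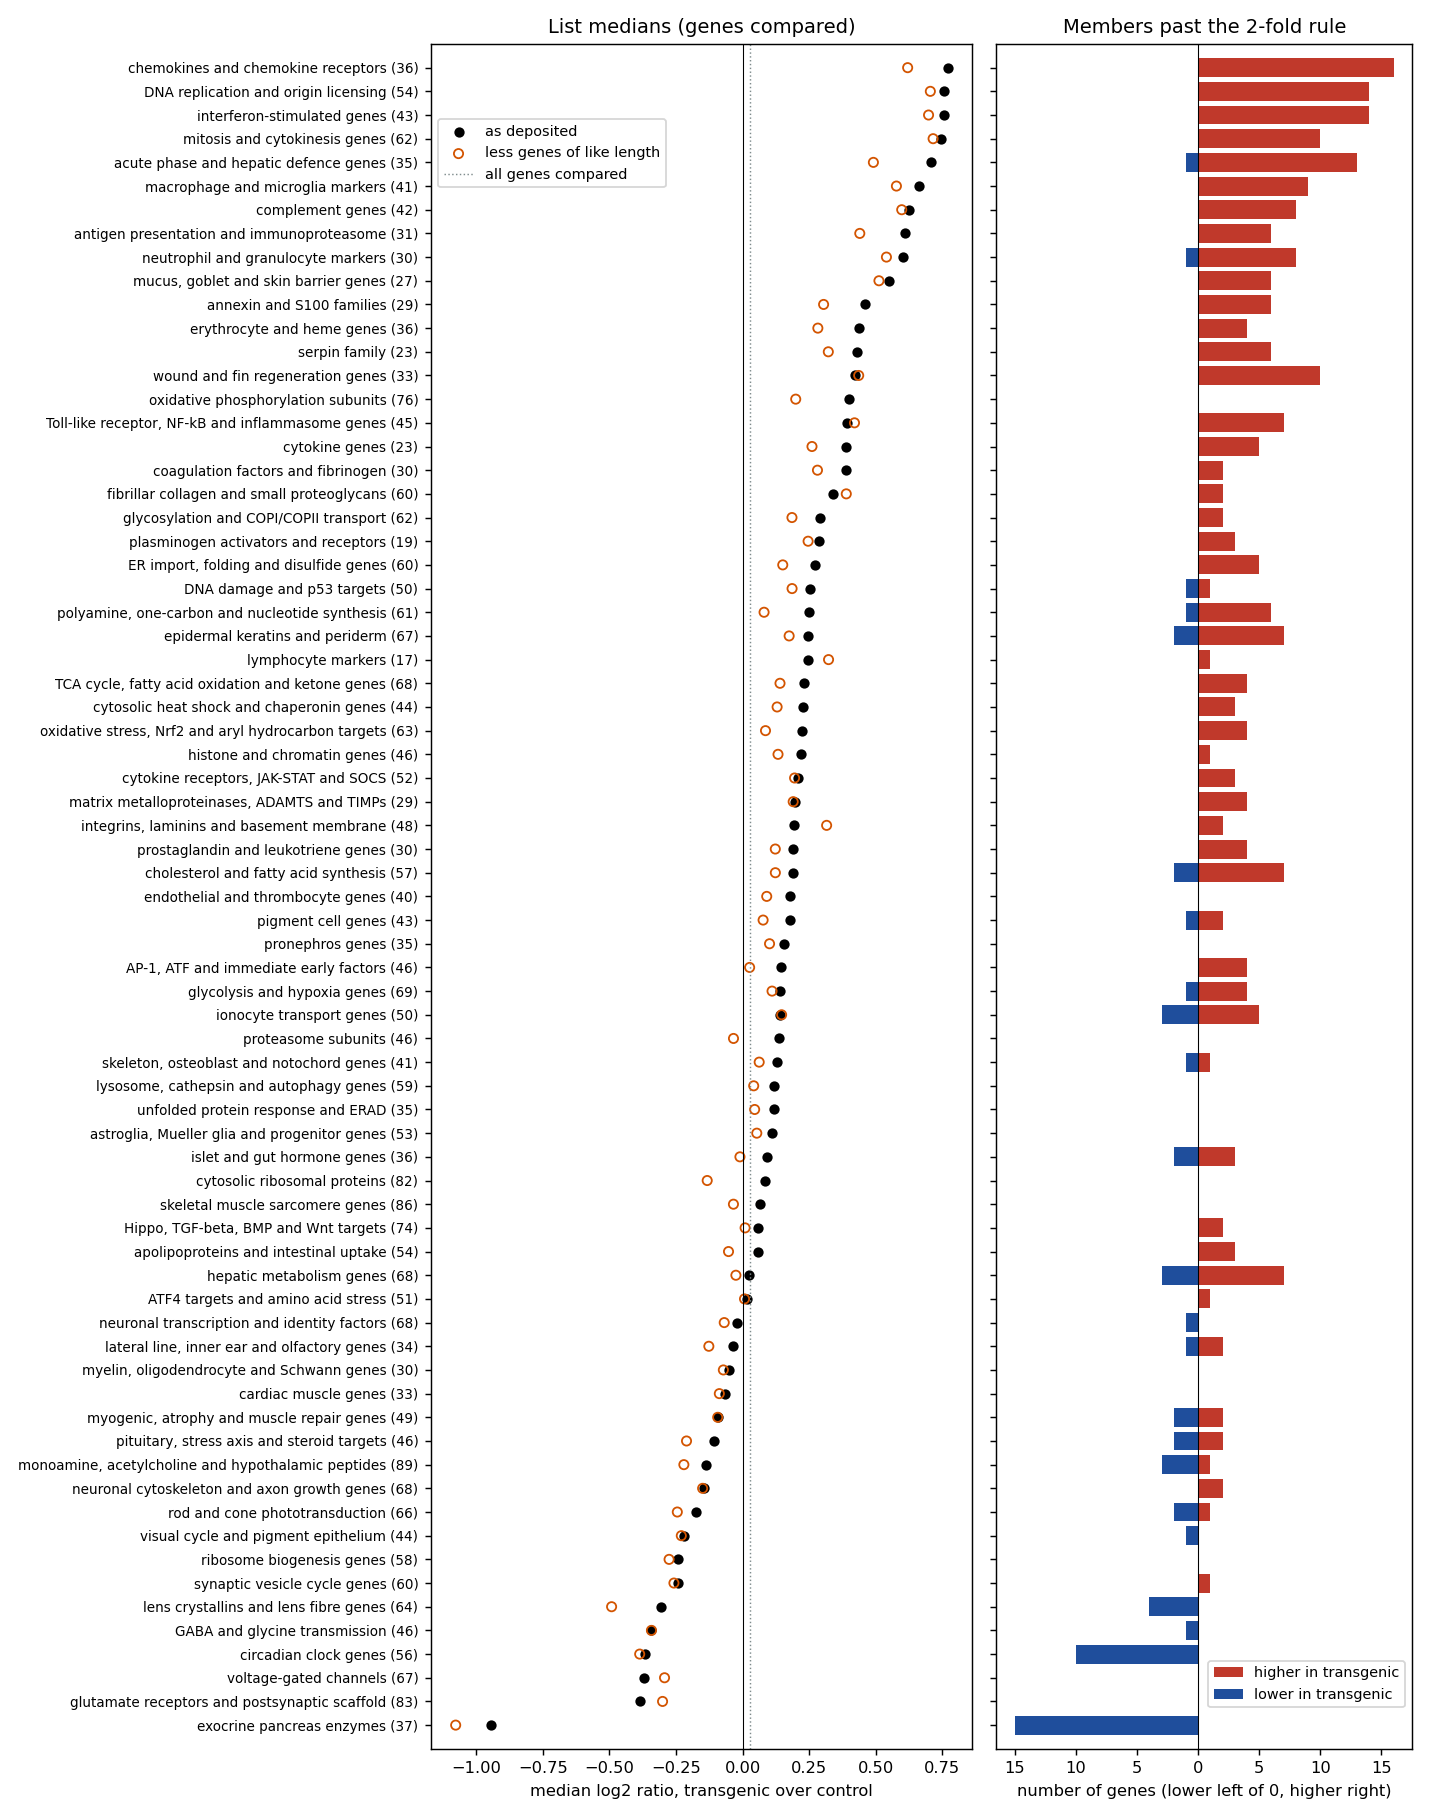
Median log2 ratio, transgenic over control, of each of 71 gene lists with the number of genes compared in brackets (left), as deposited (black) and after subtraction of the median of genes of like length (orange circles), with the median of all genes as a dotted line. On the right, red bars count members at least 2-fold higher and blue bars members at least 2-fold lower in the transgenic library, where exocrine pancreas and clock genes hold the longest blue bars at 15 and 10.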

How the data were processed

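RNA was sequenced from whole zebrafish larvae in 1 pooled library per group. The deposited values are FPKM per gene, and the authors' tables also hold their log2 ratios, p-values and false discovery rates for pairs of libraries, per the file headers. The submitters' processing notes list HISAT, StringTie, DESeq2 and the build GRCz11, with neither version nor role. No source used here gives the use of strand. The table of all libraries was sorted by the knockout and cut short, with 19699 complete genes and 0.58 as its lowest knockout FPKM. Genes missing from it were taken from the table of transgenic against control (24529 genes), which left 4816 of 24555 without a knockout value. The same genes differed by 0 between the tables.

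Genes that reached 1 FPKM in the transgenic or the control library were compared by log2((transgenic + 1)/(control + 1)), and at least 2-fold on that scale (log2 ratio of 1) counted as higher or lower. The authors' deposited p-values served only to estimate depth, since they followed a Poisson comparison of read counts. Whole reads recovered in this way lay within 0.1 of a whole number in 991 of 991 genes used. Counting intervals are 95% Clopper-Pearson intervals on estimated reads and cover counting error only, since copies of 1 molecule may be counted more than once. Of 3732 symbols written in 71 gene lists, 3567 were matched, 3241 to the files' symbols, 295 to RefSeq symbols and 31 to synonyms.

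Genes were named by rule. From each list came up to 8 higher and 6 lower genes past 2-fold, or the 4 members with the largest absolute log2 ratio where fewer than 4 were past it. From all genes came the 25 highest and 25 lowest ratios among genes with a full symbol at 5 FPKM or more, and the 15 largest FPKM differences in each direction. Other genes named were picked for their role after their values were seen. The comparison, the lists and the rule were chosen with earlier results of these data known. No test between groups was run, and the depth estimate was tested on simulated data. Python 3.11.15, numpy 2.4.6 and scipy 1.17.1 were used.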

Additional observations from a re-analysis of the deposited data

How the results depend on the processing

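With 1 library per group there was no replicate to leave out. No paired analysis was possible because each group has 1 library and no result comes from a test. The counts of genes past the rule moved by over 1.5 times with the fold threshold, the pseudocount and the floor of 5 FPKM, and by less with the other settings. Against 685 higher and 243 lower genes as reported, a pseudocount of 0.1 FPKM gave 1396 higher and 697 lower, and one of 5 FPKM gave 179 higher and 49 lower. A floor of 5 FPKM gave 400 higher and 134 lower, and a 1.5-fold rule gave 2341 higher and 1350 lower. Scaling to the median ratio gave 642 higher and 266 lower, scaling to the upper quartile 598 and 290, and requiring a counting interval that excludes 1 gave 668 and 234. The length adjustment, added after the values were seen, gave 535 and 334. Serpini1 had a log2 ratio of 3.78 as reported and 3.55 with a pseudocount of 5 FPKM. Of 366 genes named by the rule, 126 crossed the 2-fold line with the pseudocount of 5 FPKM and 40 with the length adjustment. With the floor of 5 FPKM, 296 of them were still compared. A change of pseudocount or floor cannot turn the sign of a ratio, and the scalings (0.98 and 0.95) and length medians are small beside 2-fold. These settings therefore could not test the direction of genes past 2-fold. List medians that turned negative with the length adjustment were those of cytosolic ribosomal proteins (-0.13), proteasome (-0.03), apolipoproteins (-0.05), islet and gut hormones (-0.01) and sarcomere (-0.03). With a floor of 5 FPKM the lymphocyte markers (-0.11) and pigment cell genes (-0.06) turned negative. The planned search of promoters for motifs was not run, since no sequences were used here. Genes with under 1 FPKM in a library rest on few reads, and their ratios are limited by depth.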

Other observations

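The genes in none of the lists held 478 of the higher and 186 of the lower genes. Genes not described above follow, in lists or outside them. Among epithelial regulators, ehf, an ETS factor related to elf3, had 2.32 FPKM in the transgenic library and 0.09 FPKM in control, with no knockout value used, and grhl2b, a grainyhead factor of epithelial junctions, had 5.08 FPKM in the transgenic pool, 2.43 FPKM in the knockout pool and 1.83 FPKM in the control pool. Noxo1a, which organizes an enzyme that makes superoxide in epithelia, had 8.84 FPKM in the transgenic, 1.15 FPKM in the knockout and 1.79 FPKM in the control library. Gpr84, a receptor for medium-chain fatty acids on myeloid cells, had 5.13 FPKM in the transgenic library and 0.14 FPKM in control, with no knockout value used. Arpc1b, a subunit of the actin-branching complex that leukocytes are rich in, had 34.6 FPKM in transgenic larvae, against 13.8 FPKM in knockout and 16.8 FPKM in control larvae, and tmsb4x, which holds actin monomers, had 1757 FPKM in the transgenic pool, 1005 FPKM in the knockout pool and 965 FPKM in the control pool. In these genes the transgenic library was the highest. On the lower side, psme4a, a proteasome activator, had 4.02 FPKM in the transgenic, 13.8 FPKM in the knockout and 23.5 FPKM in the control library, and slc27a2a, a fatty acid transporter of liver, had 18.1 FPKM in transgenic larvae, against 54.4 FPKM in knockout and 47.1 FPKM in control larvae. Prodha, the first enzyme of proline breakdown, had 24.8 FPKM in the transgenic pool, 35.14 FPKM in the knockout pool and 55.2 FPKM in the control pool. Gch1, which opens the synthesis of the pterin cofactor of dopamine and serotonin synthesis, had 5.01 FPKM in the transgenic, 3.99 FPKM in the knockout and 12.7 FPKM in the control library, so that control stood above both other libraries. Gpr84, tmsb4x, psme4a, slc27a2a, prodha and gch1 came under the rule for named genes, and the last 3 are members of lists. The others were picked after their values were seen.

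In the authors' deposited pathway annotation, 10060 of the genes compared had a pathway, of which 4.1% were at least 2-fold higher and 1.37% at least 2-fold lower. DNA replication had 7 of 39 genes higher (3 compared only through the transgenic library), one carbon pool by folate 5 of 36 (2 only through it), glutathione metabolism 8 of 72 (3 only through it) and mineral absorption 12 of 100 (3 only through it). Circadian rhythm had 8 of 53 lower and pancreatic secretion 10 of 164 lower and 6 higher. The pathways share genes, and 287 held at least 15 genes. Along the gene order of the GRCz12tu assembly, used for order only, 18602 of the compared genes were placed and 18 runs of 3 or more neighbours were all higher or all lower. The longest held 7 higher genes around mfap4, a gene of macrophages, and others held globins, ms4a17a copies, the 3 immunoproteasome genes psmb10, psmb12 and psmb9a, and txn beside ptgr1. Psmb10, psmb12 and psmb9a were compared only through the transgenic library, so their ratios had to be positive. They rest on an estimated 8, 10 and 12 reads there, against 0, 1 and 0 in control. Among lower runs were 4 genes of the pancreatic list ending in zgc:92745, cep41 with cpa1 and cpa5, and the 3 crystallins named above. Neighbours in such clusters are often close copies, whose reads may be split among them.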
